A study of Mus musculus with 7 samples.

Results

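The dystrophin glycoprotein complex was followed here through 9 of its genes, out of 21887 protein-coding genes, in open chromatin of MuSCs, the stem cells of mouse skeletal muscle, which express Pax7 and sit under the basal lamina of the fibers. The genes were Dmd, Utrn, Dag1, Sgca, Sgcb, Sgcd, Sspn, Dtna and Sntb1. They were chosen by name and not by any measured value, though with earlier results of these data known. ATAC-seq, in which the Tn5 transposase cuts and tags accessible DNA, had been run on 5000 MuSCs per library, sorted by FACS directly from hindlimb muscle. The study asked whether chromatin accessibility differs when the E3 ubiquitin ligase Nedd4L is inactivated in these cells. A peak belonged to a gene if it overlapped the gene's RefSeq span on mm10 (the GRCm38 assembly) extended by 10 kb on both sides, and a promoter peak was one within 1 kb of any start site used here.

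There were 4 Nedd4L-cKO libraries and 3 WT libraries. The Nedd4L-cKO mice carry Nedd4L fl/fl together with Pax7 cre/+ on a C57BL/6 background, so that Cre is driven by the Pax7 locus itself, without an inducer, and recombination can begin as early as Pax7 is expressed in development. Deletion removes 1 exon of the catalytic domain, and the transcript is still made. All mice were male and aged 5 to 6 weeks. The study's methods give 4 Nedd4L-cKO and 3 WT mice, the same numbers as the libraries, although the labels do not tie a library to a mouse. A lower peak in such a bulk library can mean fewer cells with open chromatin or less open chromatin per cell, and these cannot be told apart.

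The complex ties the actin cytoskeleton of muscle to the basal lamina. Dystrophin, or its autosomal relative utrophin, binds actin inside the cell and β-dystroglycan at the membrane, α-dystroglycan binds laminin outside, sarcoglycans and sarcospan steady that axis in the membrane, and dystrobrevin and syntrophins hold signalling proteins on its cytoplasmic side. In muscle fibers its loss causes muscular dystrophy, and in activated MuSCs dystrophin is known to help set cell polarity and asymmetric division.

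After duplicate removal 14.4 to 20.1 M tags per library were kept, and 69302 to 79158 broad peaks were called per library. A narrow peak lay within 92.5% and 92.8% of the broad peaks of WT replicates 1 and 2 and within 84.7% to 87.3% in the other 5 libraries, a difference whose part in the results was not tested beyond repeating them on the peaks that hold a narrow one. The deletion itself, of an exon and not of a promoter, was not analysed here. Of the markers of MuSCs, 10 of 11 had a promoter peak in all 7 libraries, Notch3 having one in 1 library. None of 5 immune markers (Ptprc, Itgam, Csf1r, Cd68, Spi1) had a promoter peak in any library. Of 10 myofiber markers 7 were open in all 7 libraries and Myl1 in none. The count was 2 of 5 for fibro-adipogenic markers (Pdgfra and Ly6a open in none), 2 of 5 for endothelial markers (Pecam1, Cdh5 and Emcn open in none) and 2 of 4 for Schwann cell markers (Sox10 open in none). Of all protein-coding genes with a start site, 63.4% had a promoter peak in all 7 libraries. The part of other cells in any value below was not tested.

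Most of the complex genes had an open start in MuSCs of both genotypes. A promoter peak was present in all 7 libraries at 8 of the 9 genes, beside 63.4% of the 21440 protein-coding genes with a start site. The exception was Sgca, with no promoter peak in any library. With only the more significant peaks kept (a -log10 q of at least 5) the count was 5, since Sgcd, Dtna and Sntb1 then lacked a peak in at least 1 library. The share of all genes at that cutoff was not counted. Peaks of all libraries that overlapped by at least 1 bp were merged into 123 regions at the 9 genes, 60 of them present in every library and 29 in 1 library alone. That is 48.8% called in all 7 and 23.6% in a single one, beside 56.0% and 14.7% of the 95163 regions of the genome. Of the 123 regions 12 lay at promoters, 97 elsewhere within the spans, 6 in the upstream and 8 in the downstream flanks. Whether the regions within the spans are exonic or intronic was not determined.

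MACS2 gives each peak a pileup, the coverage by extended tags, and a fold enrichment, that pileup over the local background of the same library. Both were turned into percentiles within each library, from 0 for its lowest peak to 100 for its highest, because the libraries were called separately. The 2 measures can part ways, for example where a peak stands in a wide stretch of open chromatin that raises its local background. Why they differ at a given region was not tested here. Among 13756 genes with a promoter region called in all 7 libraries, the median pileup percentile was 86.7 and the median fold percentile 79.3. For the 8 complex genes the medians were 78.6 and 73.1.

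**Figure D1:**
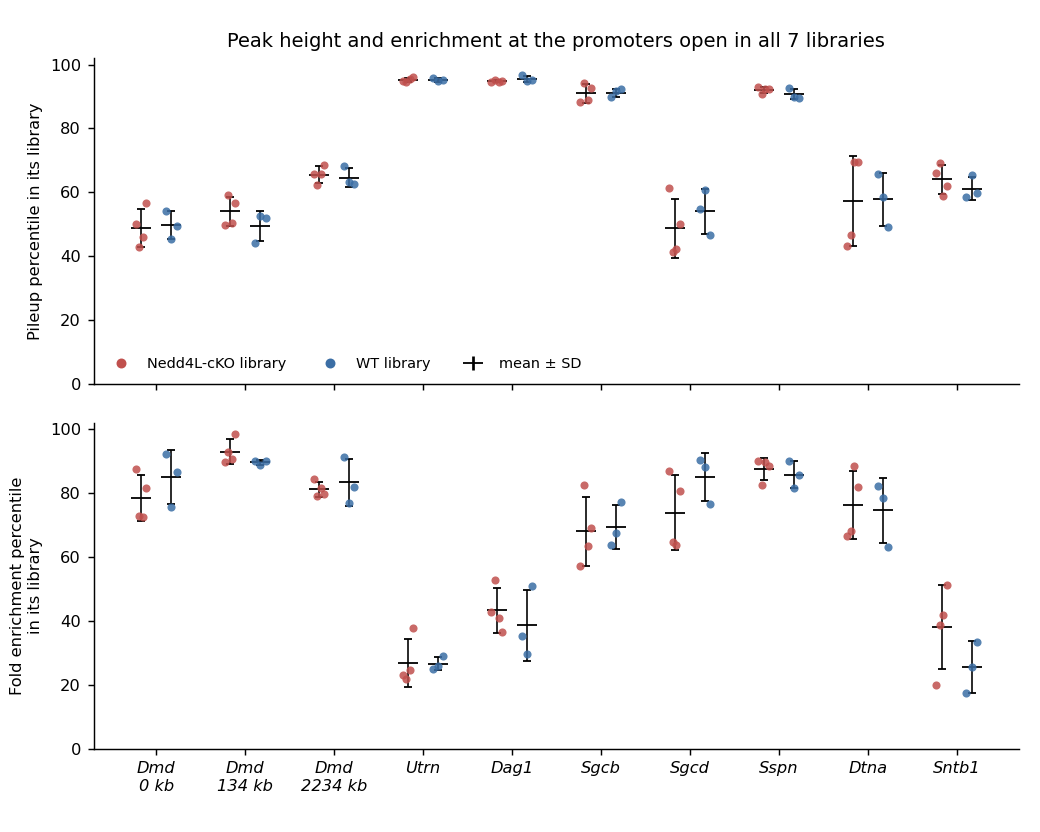
Pileup percentile (top) and fold enrichment percentile (bottom) of the 10 promoter regions open in all 7 libraries, 1 point per library, with the mean ± SD of the 4 Nedd4L-cKO and the 3 WT libraries and, under Dmd, the distance in kb from its outermost start. Utrn and Dag1 stand near the top by pileup and low by fold, and at every promoter the points of both genotypes overlap.

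Dmd, the dystrophin gene, spans 2390 kb of the X chromosome (chrX:82814664-85205050, plus strand) and had 3 start sites here, each open in all 7 libraries. With only peaks of a -log10 q of at least 5 kept, the outermost of them was not called in every library. By their order along the gene the outermost start, 82814664, matches the brain full-length transcript, the start 134 kb downstream, 82948870, the muscle full-length transcript, and the start 157 kb before the far end, 85048295, the short Dp71 transcript that lacks the actin-binding end. The table of start sites gave no transcript names, and further known starts of Dmd (those of the Purkinje, Dp260, Dp140 and Dp116 transcripts) were not located here, so a region counted as within the span may lie at one of them. At the muscle start (chrX:82948204-82949253) the fold percentiles were 89.7, 92.8, 90.9 and 98.6 in Nedd4L-cKO replicates 1 to 4 and 90.2, 88.7 and 90.1 in WT replicates 1 to 3. This was the strongest of the 3 by fold, with a median of 90.2 against 81.6 at both other starts. By pileup the order differed: the Dp71 start (chrX:85047818-85049581) led with 65.7, 62.2, 65.7 and 68.7 in Nedd4L-cKO and 68.1, 63.2 and 62.6 in WT. The muscle start had a median pileup percentile of 51.9 and the brain start (chrX:82814143-82815251) 49.4. Male cells hold 1 X chromosome, and the median pileup of X-linked peaks was 11.3 to 13.9 per library against 13.8 to 16.9 on the autosomes. Ranked within the X chromosome alone, the 3 Dmd starts had median pileup percentiles of 59.3, 61.4 and 74.1 and median fold percentiles of 74.7, 85.9 and 73.7.

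The muscle and Dp71 starts differ in the bases before them. The 250 bases upstream of each are shown because both are open while their base composition is unlike, from RefSeq promoters on GRCm38.p6 (muscle, chrX:82948620-82948869, plus strand; Dp71, chrX:85048045-85048294, plus strand), 5′ to 3′ and ending just before the start. Capitals mark E-boxes (CANNTG, which bind myogenic and other basic helix-loop-helix factors), GC boxes (GGGCGG or its reverse complement CCGCCC, which bind Sp factors) and CArG boxes, which bind serum response factor.
Dmd muscle start: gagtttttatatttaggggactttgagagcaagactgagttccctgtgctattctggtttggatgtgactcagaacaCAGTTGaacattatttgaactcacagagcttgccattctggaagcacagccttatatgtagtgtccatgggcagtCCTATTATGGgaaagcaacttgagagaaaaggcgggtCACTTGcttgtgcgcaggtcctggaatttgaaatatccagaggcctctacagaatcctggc
Dmd Dp71 start: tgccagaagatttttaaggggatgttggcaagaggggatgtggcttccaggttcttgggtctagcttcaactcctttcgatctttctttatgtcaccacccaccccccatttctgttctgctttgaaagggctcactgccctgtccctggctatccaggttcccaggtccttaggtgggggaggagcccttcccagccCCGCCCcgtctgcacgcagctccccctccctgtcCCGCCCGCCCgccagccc
The muscle window holds 2 E-boxes and 1 CArG box, has 45.2% G and C, and 2 CpG. The Dp71 window holds 3 GC boxes, the last 2 overlapping each other, and no E-box, with 60% G and C and 7 CpG. Over the same 250 bases of 32851 start sites in the RefSeq table, an E-box is in 66.2%, a GC box in 32.7% and a CArG box in 1.47%. A match of letters is not evidence that a factor is bound.

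Between its ends Dmd was sparse. In all, 19 regions were called in the span and its flanks, 9 of them in every library, which came to a median of 0.498 peaks per 100 kb against a median of 4.41 over all genes. The densities given here and below were not matched for gene length. The longest stretch with no peak in any library ran for 1438 kb (chrX:83333520-84771882) (in a gene of 2390 kb). The regions formed a group from the full-length starts inwards and another in the last part of the gene, around the Dp71 start. The highest median fold percentile at Dmd, 90.6, belonged to a region 2046 kb into the gene (chrX:84859490-84861409). Its values were 48.3, 89.7, 99.7 and 97.2 in Nedd4L-cKO and 90.0, 90.6 and 90.6 in WT, so that replicate 1 of Nedd4L-cKO stood far below the other libraries.

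**Figure D2:**
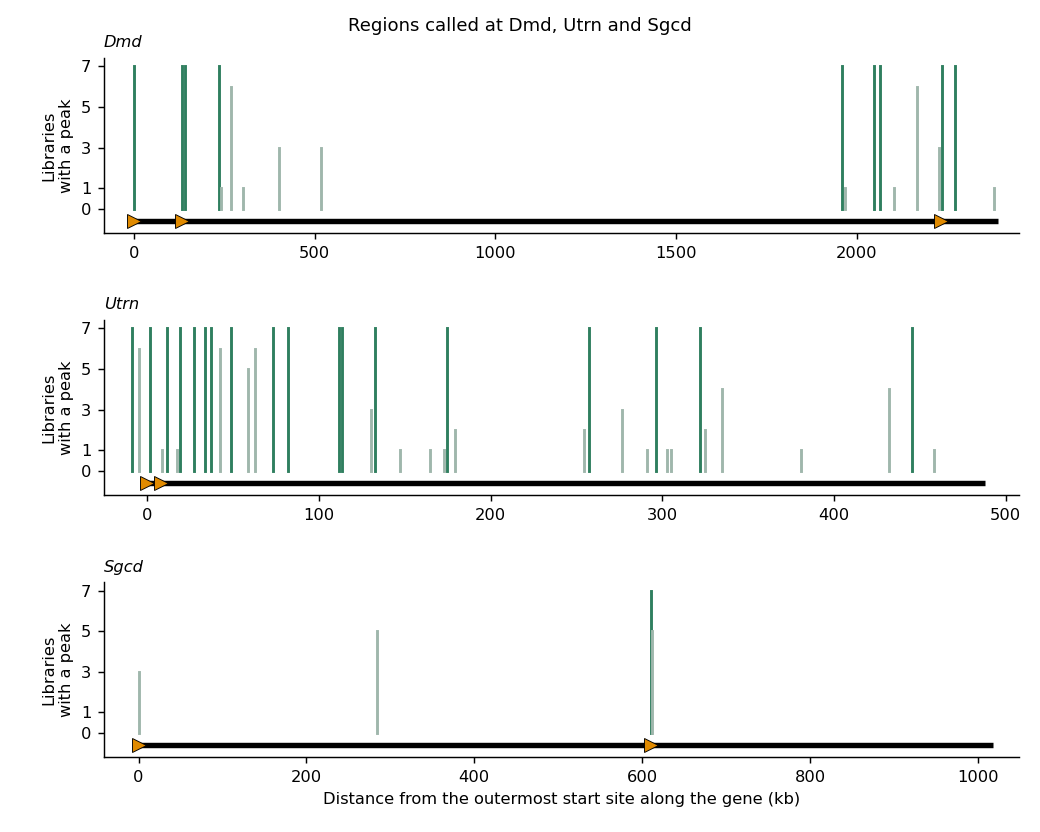
Regions along Dmd, Utrn and Sgcd by distance from the outermost start (kb), with the number of libraries (0 to 7) that have a peak in each region as the height of the line, where dark green lines are regions called in all 7 libraries, pale lines those called in fewer, triangles are start sites and the black bar is the gene. Dmd has no region for 1438 kb of its middle, Utrn has regions along most of its length, and Sgcd has 1 region called in all 7 libraries.

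Utrn, the utrophin gene (chr10:12382187-12869888, minus strand), was the most densely covered of the large genes. It had 23 to 27 peaks in each library and 39 regions, 18 of them called in all 7 libraries, in a span of 488 kb and its flanks. At its outermost start (chr10:12866966-12869716) the pileup percentiles were 95.0, 94.5, 95.6 and 96.1 in Nedd4L-cKO and 95.9, 94.7 and 95.2 in WT. By fold the same region stood at 23.2, 21.7, 24.6 and 37.8 in Nedd4L-cKO and 25.0, 26.0 and 29.1 in WT. Thus the utrophin promoter was among the taller peaks of every library and among the lower by enrichment over its surroundings. A second start in the RefSeq table, 12861735, which lies 8.15 kb inside, had a peak in 1 library, Nedd4L-cKO replicate 1. The strongest Utrn region by fold lay 8.95 kb upstream of the outermost start (chr10:12878501-12879179), at 99.5 to 99.9 in all 7 libraries, with a median of 99.7. The tallest by pileup lay 48.5 kb inside (chr10:12820822-12821915), with a median percentile of 98.3 and a range of 93.8 to 99.2. Neither overlaps the promoter of another protein-coding gene.

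Dag1 encodes dystroglycan, which is cut into the α and β subunits that join laminin to dystrophin. Its span of 59.1 kb (chr9:108204861-108263977, minus strand) and flanks held 9 to 11 peaks per library, or 12.6 per 100 kb by the median library, a density above that of 90.5% of genes. All of its 3 start sites fell in 1 region (chr9:108263107-108264658), with pileup percentiles of 94.5, 95.1, 94.5 and 94.9 in Nedd4L-cKO and 96.7, 94.9 and 95.2 in WT. Its fold percentiles were 42.8, 52.9, 41.1 and 36.5 in Nedd4L-cKO and 35.3, 29.5 and 51.1 in WT. As at Utrn, the peak was tall and its fold moderate in both genotypes. The strongest region by fold was in the downstream flank (chr9:108200453-108201798, median percentile 86.9), and the tallest was 9.11 kb upstream (chr9:108272354-108273818, median pileup percentile 97.0).

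The sarcoglycans form a subcomplex of single-pass membrane proteins around dystroglycan, and the 3 genes differed in the state of their starts. Sgcb (β-sarcoglycan, chr5:73632749-73647737, minus strand) had 1 open start in all 7 libraries (chr5:73646968-73648115), with pileup percentiles of 88.2, 94.2, 88.8 and 92.7 in Nedd4L-cKO and 89.7, 91.6 and 92.3 in WT. By median it was both the tallest and the most enriched of the 3 Sgcb regions called in all 7 libraries. The region 3.73 kb upstream of the Sgcb start (chr5:73650647-73652278) overlapped the promoter of the neighbouring gene Spata18, so it cannot be assigned to Sgcb.

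Sgcd (δ-sarcoglycan, chr11:46971077-47989451, minus strand) spans 1018 kb and had 2 or 3 peaks per library, or 0.289 per 100 kb, a density above that of 22.7% of genes. Its outermost start, 47989451, had a peak in 3 of 7 libraries (Nedd4L-cKO replicate 1 and WT replicates 1 and 2). The start 610 kb downstream, 47379325, was open in all 7 (chr11:47378812-47379733). There the fold percentiles were 86.9, 64.6, 63.7 and 80.6 in Nedd4L-cKO and 90.4, 88.3 and 76.7 in WT. This was the single Sgcd region called in every library.

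Sgca (α-sarcoglycan, chr11:94962777-94976327, minus strand), a gene mainly of striated muscle fibers, was closed at its start in all 7 libraries. Each library still had 3 or 4 peaks in its span and flanks. A region centred 2.84 kb upstream of the start (chr11:94978639-94979693) was called in every library, at fold percentiles of 92.6, 97.0, 98.3 and 97.8 in Nedd4L-cKO and 96.7, 94.7 and 98.2 in WT. It overlapped no promoter of another protein-coding gene. Another region, 3.26 kb inside the gene (chr11:94972114-94974019), was also called in all 7 libraries, with a median fold percentile of 59.2. The tallest lay in the downstream flank (chr11:94957588-94958871), with a median pileup percentile of 81.5. With the window widened to 2.5 kb from the start, it reached the upstream region and the edge of the region 3.26 kb inside. All 9 genes then had a promoter peak in every library, and the share of all genes with this window was not counted.

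The 250 bases upstream of Sgca and of Dag1 are set side by side as a start with no peak and one of the tallest (RefSeq, GRCm38.p6; Sgca, chr11:94976328-94976577, minus strand; Dag1, chr9:108263959-108264208, minus strand), with the same motifs in capitals.
Sgca: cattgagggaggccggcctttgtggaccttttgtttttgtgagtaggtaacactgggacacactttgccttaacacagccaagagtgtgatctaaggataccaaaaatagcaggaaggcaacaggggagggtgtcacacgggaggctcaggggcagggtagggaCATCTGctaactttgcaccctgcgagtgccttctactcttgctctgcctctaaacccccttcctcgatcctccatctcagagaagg
Dag1: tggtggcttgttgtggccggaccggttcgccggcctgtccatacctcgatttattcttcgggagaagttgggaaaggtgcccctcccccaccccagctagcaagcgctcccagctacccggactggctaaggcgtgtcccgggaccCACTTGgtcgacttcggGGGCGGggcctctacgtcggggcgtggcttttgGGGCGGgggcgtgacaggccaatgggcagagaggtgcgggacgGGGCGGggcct
The Sgca window has 1 E-box, no GC box, 4 CpG and 52.8% G and C. The Dag1 window has 1 E-box, 3 GC boxes, 21 CpG and 67.6% G and C. Genome-wide, the 16253 start sites with a peak in all 7 libraries had medians of 60% G and C and 15 CpG per window, and 56.1% held a GC box. The 14254 start sites with no peak had medians of 46% and 2, and 7.82% held a GC box. The 7 genes of the complex found in the table have 10 start sites there, and Dtna and Sntb1 were taken at the outer end of their spans.

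Sspn encodes sarcospan, a tetraspanin-like partner of the sarcoglycans. Its span (chr6:145931873-145965225, plus strand) has 2 start sites 2.25 kb apart in the table, 1 with and 1 without a peak. The outermost, 145931873, had no peak in any library, and the inner one, 145934122, was open in all 7 (chr6:145933780-145935337). The pileup percentiles at the inner start were 92.9, 90.8, 92.2 and 92.3 in Nedd4L-cKO and 92.8, 90.0 and 89.7 in WT. Its fold percentiles were 81.6 to 90.0 in the 7 libraries, so this promoter was high by both measures. The upstream bases of both are shown because they are neighbours that differ in whether a peak was called (outer, chr6:145931623-145931872; inner, chr6:145933872-145934121, both plus strand).
Sspn outer start: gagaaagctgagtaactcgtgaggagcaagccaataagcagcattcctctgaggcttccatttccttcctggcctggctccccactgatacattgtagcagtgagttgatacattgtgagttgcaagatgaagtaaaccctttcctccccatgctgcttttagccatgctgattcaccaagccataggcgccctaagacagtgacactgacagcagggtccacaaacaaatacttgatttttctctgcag
Sspn inner start: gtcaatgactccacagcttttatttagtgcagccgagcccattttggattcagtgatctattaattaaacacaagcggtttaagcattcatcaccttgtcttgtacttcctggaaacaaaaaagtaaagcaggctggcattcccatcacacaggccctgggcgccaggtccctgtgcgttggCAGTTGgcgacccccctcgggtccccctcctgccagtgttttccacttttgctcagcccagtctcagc
The outer window holds none of the 3 motifs and 2 CpG, and its last 2 bases are ag, the letters that end an intron, so this entry of the table may be an internal exon and not a start. The inner window holds 1 E-box and 6 CpG. The Utrn start at 12861735 is also preceded by ag, and the same holds for it. These letters precede 6.07% of all start sites of the table, 4.77% of those open in all 7 libraries and 7.56% of those open in none.

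Dtna and Sntb1 encode cytoplasmic members, α-dystrobrevin and β1-syntrophin. Dtna (chr18:23310006-23659719, plus strand) was open at its start in all 7 libraries (chr18:23309809-23311239), with fold percentiles of 66.7, 68.3, 88.6 and 82.1 in Nedd4L-cKO and 82.3, 78.5 and 63.1 in WT. Its pileup percentiles ranged from 43.3 to 69.5 within Nedd4L-cKO alone, a wider spread than the difference between the genotype means (57.2 ± 14.2 against 57.8 ± 8.35, SD, n = 4 and n = 3). Sntb1 (chr15:55636388-55907302, minus strand) was also open in all 7 (chr15:55904795-55907367). There the fold percentiles were low, 20.0, 38.9, 41.8 and 51.4 in Nedd4L-cKO and 17.4, 25.8 and 33.6 in WT. Its most enriched region lay 116 kb inside (chr15:55790963-55791896, median fold percentile 82.4), and that of Dtna 145 kb inside (chr18:23453982-23455220, 80.2). The tallest Sntb1 region was 160 kb inside (chr15:55746478-55747985, median pileup percentile 71.6).

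Peak numbers did not separate the genotypes at any of the 9 genes. Utrn had 27, 27, 23 and 26 peaks in Nedd4L-cKO and 26, 24 and 26 in WT (exact two-sided permutation test, p = 0.80). Dmd had 12, 12, 12 and 17 against 12, 10 and 14 (exact permutation p = 0.714). Dtna had 12, 10, 13 and 11 against 10, 10 and 10, the lowest p of the 9 genes (exact permutation p = 0.143), and Sntb1 15, 15, 9 and 9 against 8, 8 and 10 (exact permutation p = 0.286). For these last genes the Nedd4L-cKO values reached higher than the WT values but the groups overlapped. Dag1, Sgca, Sgcb, Sgcd and Sspn differed by less than 1 peak between the group means (exact permutation p from 0.486 to 1). With 35 ways to split 7 libraries into 4 and 3 the smallest possible p is 0.0286, and over 17440 genes with a peak no adjusted p was under 0.05, while 79 had an unadjusted exact p under 0.05. Over those genes all Nedd4L-cKO libraries had more peaks than all WT libraries in 0.206%, and fewer in 0.281%.

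At 2 of the 9 genes the groups no longer overlapped when a certain library was left out. Without Nedd4L-cKO replicate 2, Dtna had 11 to 13 peaks in Nedd4L-cKO against 10 in each WT library, and with that library left out 0.55% of the 17440 genes had more peaks in every Nedd4L-cKO library. Without WT replicate 3, Sntb1 had 9 to 15 against 8, beside 0.619% of those genes.

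**Figure D3:**
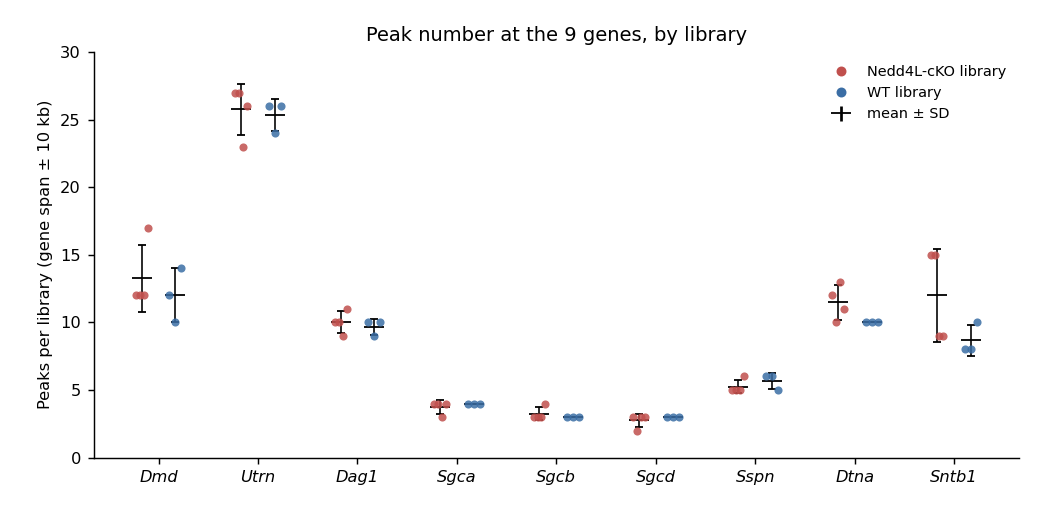
Number of broad peaks per library in the span ± 10 kb of each gene, 1 point per library, with the mean ± SD of the 4 Nedd4L-cKO and the 3 WT libraries. Utrn has 23 to 27 peaks in every library, Sgca, Sgcb and Sgcd 2 to 4, and at no gene do the points of the 2 genotypes separate.

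No region at the 9 genes was called in every library of 1 genotype and in none of the other. Genome-wide 66 regions, or 0.0694%, were called in all Nedd4L-cKO and no WT libraries, and 78, or 0.082%, in all WT and no Nedd4L-cKO libraries.

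The height of the shared sites was then compared. For each of 53245 regions called in all 7 libraries, the rank of its fold within each library was turned into a normal score, whose unit is 1 SD of the ranks, and limma compared the genotypes with Benjamini-Hochberg adjustment over all regions. None of the 60 regions at the complex genes had an adjusted limma p under 0.05, and the share over all regions was 0%. Without adjustment, 0 of the 60 were higher and 4 lower in Nedd4L-cKO at a limma p under 0.05, which is 6.67% lower. Over all 53245 regions the shares were 1.77% higher and 2.21% lower. The estimates of the 60 regions ranged from -0.82 to 0.55 with a median of -0.045, 28 above and 32 below 0, and the median over all regions was 0.015.

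No promoter of the complex passed the test between the genotypes. The largest negative estimate of a promoter was at Sgcd, -0.44 ± 0.27 (SE, 4 against 3 libraries), with a limma p of 0.126 before and 1.00 after adjustment, and the largest positive was at Sntb1, 0.33 ± 0.23, with a limma p of 0.18 before and 1.00 after adjustment. At the 3 Dmd starts the estimates were -0.30 ± 0.24, 0.32 ± 0.24 and -0.13 ± 0.21 in order along the gene. The brain and muscle starts thus had opposite signs, and neither estimate reached 2 SE. Utrn, Dag1, Sgcb, Sspn and Dtna lay between -0.04 and 0.11. The Sgca upstream region had an estimate of 0.01 ± 0.22. An estimate whose SE is about 0.2 does not tell apart no shift and shifts of up to about 2 SE in either direction.

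All 4 regions with an unadjusted limma p under 0.05 lay inside Utrn, out of its 18 regions called in all 7 libraries, of which 11 had estimates below 0 and 7 above. The one with the lowest p was named by the rule for this report and the other 3 were named after their values were seen. The lowest lay 296 kb into the gene (chr10:12573194-12574306), with fold percentiles of 74.3, 81.0, 70.3 and 71.5 in Nedd4L-cKO and 96.3, 84.9 and 91.3 in WT. Every Nedd4L-cKO library was below every WT library there, and the estimate was -0.82 ± 0.23 (limma p of 0.00536 before and 1.00 after adjustment). An exact permutation test of the percentiles gave p = 0.0286, the smallest that these 7 libraries allow. This test, here and at the other 3 regions, was not adjusted. It used the values by which the regions were picked, so it adds no separate support. The region 81.8 kb into the gene (chr10:12787692-12788577) was among the most enriched of each library, at 96.2, 92.3, 96.8 and 98.3 in Nedd4L-cKO and 99.6, 99.1 and 99.3 in WT, again without overlap. The estimate was -0.73 ± 0.21 (limma p of 0.00565 before and 1.00 after adjustment; exact permutation p = 0.0571 on the percentiles). At 33.4 kb (chr10:12836113-12836845) the values were 20.4, 31.4, 6.82 and 9.59 against 54.9, 19.7 and 40.7. At 445 kb (chr10:12423544-12425266) they were 43.5, 27.9, 50.3 and 60.9 against 80.2, 58.0 and 60.6. At these last sites the groups overlapped, with estimates of -0.69 ± 0.30 (limma p of 0.0445 before adjustment; exact permutation p = 0.143) and -0.62 ± 0.26 (limma p of 0.0375; exact permutation p = 0.114), both with an adjusted limma p of 1.00. None of the 4 passed the adjustment, they are sites of 1 gene measured in the same 7 libraries, and their number was not tested against other genes. The share of all regions whose genotypes do not overlap by fold percentile was not counted.

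By pileup rank the same 4 regions had estimates of -0.26 ± 0.13, -0.30 ± 0.09, -0.26 ± 0.14 and -0.50 ± 0.21 from 33.4 to 445 kb. The unadjusted limma p ran from 0.0115 to 0.0947, with adjusted p of 1.00. Fold enrichment is computed from pileup and the regions were picked by fold rank, so the shared sign is not separate support. The Utrn promoter itself had a fold estimate of -0.03 ± 0.17 and the region 8.95 kb upstream one of 0.19 ± 0.19. Neither of these sites next to the Utrn start came near the estimates of the 4 internal ones, though the difference between sites was not tested. Of the 7 files, the one of WT replicate 3 alone names sequencing lane 2. Within lane 1, without that library, the estimates at 33.4, 81.8, 296 and 445 kb were -0.67, -0.75, -0.83 and -0.72, with limma p of 0.0979, 0.0152, 0.0148 and 0.041 before adjustment.

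**Figure D4:**
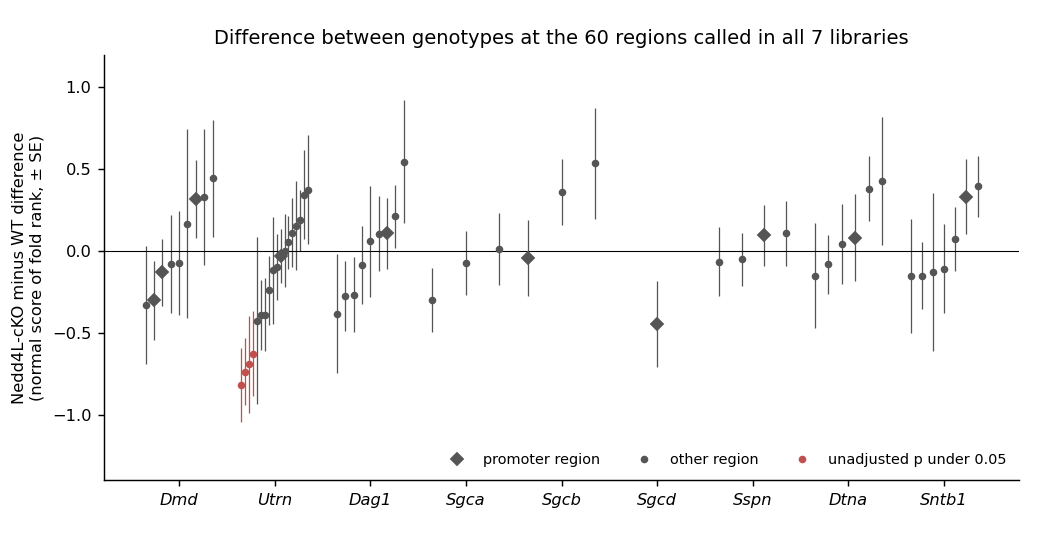
Difference between genotypes in the normal score of the fold rank (Nedd4L-cKO minus WT, estimate ± SE from limma) for each of the 60 regions called in all 7 libraries, grouped by gene and ordered by estimate, with diamonds for promoter regions. The 4 red points, all at Utrn, have an unadjusted p under 0.05, and no region passed adjustment.

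**Figure D5:**
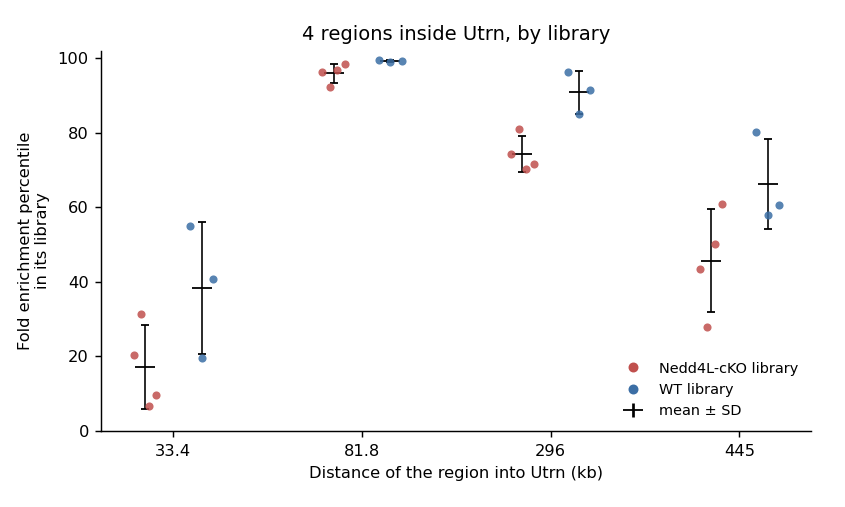
Fold enrichment percentile of the 4 Utrn regions in each library, by distance into the gene (kb), with the mean ± SD of the 4 Nedd4L-cKO and the 3 WT libraries. The groups do not overlap at 81.8 and 296 kb and overlap at 33.4 and 445 kb. The share of all regions without overlap was not counted.

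At the other genes the lowest unadjusted limma p was 0.0599, at a Sntb1 region 59.9 kb inside the gene (chr15:55846963-55847851). There the fold percentiles were 47.4, 35.5, 36.2 and 42.6 in Nedd4L-cKO and 34.1, 22.1 and 22.3 in WT, an estimate of 0.40 ± 0.19. At Dtna it was 0.0847, 105 kb inside (chr18:23413480-23415694), at 67.9, 74.8, 65.9 and 65.3 against 58.1, 63.1 and 45.2, an estimate of 0.38 ± 0.20. This Dtna region was also the tallest of that gene, with a median pileup percentile of 61.5. At both sites every Nedd4L-cKO library was above every WT library, and neither passed the test. How often regions elsewhere in the genome separate in this way was not counted, so whether the separation is particular to these sites was not tested. The lowest at Sgcb was 0.103 at the region shared with Spata18 (0.36 ± 0.20), at Sgca 0.16 at the region 3.26 kb inside (-0.30 ± 0.19), at Dag1 0.176 at a region 11.9 kb inside (chr9:108251708-108252516, 0.55 ± 0.37), at Dmd 0.216 at the muscle start and at Sspn 0.595 in the downstream flank (chr6:145972123-145973171, 0.11 ± 0.20). All adjusted limma p were 1.00.

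Other genes of the complex and its partners were read in the same way. Of 11 further complex genes, 8 had a promoter peak in all 7 libraries, against 63.4% of all genes with a start site. Sntg1 (γ1-syntrophin) and Nos1 (neuronal nitric oxide synthase, which docks on syntrophin) had none in any library, and Sgcz (ζ-sarcoglycan) had one in 4. All 9 genes of laminin chains, agrin and perlecan, the extracellular ligands of α-dystroglycan, were open in all 7 libraries, as were all 5 genes of integrin adhesion, the other laminin receptor system of MuSCs. None of the regions at these 3 lists had an adjusted limma p under 0.05.

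In each list the promoters of lowest p in either direction did not pass the test. Among the further complex genes these were Sntg2 (0.23 ± 0.20, limma p of 0.276 before adjustment) and Bgn (-0.15 ± 0.17, limma p of 0.396). Among the ligands they were Agrn (0.33 ± 0.19, limma p of 0.117 before adjustment) and Lama1 (-0.33 ± 0.18, limma p of 0.0995). Among the adhesion genes they were Tln1 (0.16 ± 0.20, limma p of 0.446 before adjustment) and Vcl (-0.10 ± 0.19, limma p of 0.618). All had adjusted limma p of 1.00, and not passing the test does not show that a promoter is alike in both genotypes.

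The promoter levels of the complex across the 7 libraries were also compared with those of other genes. The normal scores of pileup rank of the 8 open genes were averaged per library, and the genes whose promoters followed that profile most closely, among 13748 others, were En2 (Pearson r = 0.985), Zfp82 (0.976) and Clptm1l (0.972), over 7 libraries. These are descriptions picked as the highest of many, over points that share depth and library, and 55.1% of the compared genes had r above 0.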

How the data were processed

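ATAC-seq libraries of 4 Nedd4L-cKO and 3 WT samples were grouped by the genotype and number in their titles. Per the labels and the study's methods, reads were trimmed with Trimmomatic 0.39, aligned to mm10 with BWA 0.7.17, filtered with SAMtools at a mapping quality above 30 and deduplicated with Picard 2.26.3. Per the file headers, the authors called broad peaks for each library separately with MACS2 2.2.7.1, without control, in single-end mode, with a shift of -100 bp and an extension of 200 bp, at a broad q-value of 0.1 and a narrow q-value of 0.05, with a local background of 10000 bp. The deposited pileup is a signal, the coverage by extended tags in that library. The deposited fold enrichment is the ratio of that coverage to the background around the peak. The deposited significance of a peak, its p-value or q-value, is on the -log10 scale. The deposited gapped lists mark narrow peaks within broad ones. The values carry no replicate error of their own, and depth limits which weak peaks were called.

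Peaks on the 19 autosomes, X and Y were used, and the 2 mitochondrial peaks per library were left out. Gene spans came from RefSeq on GRCm38.p6. Start sites were those of the RefSeq promoter table and the outer end of each span (21440 of 21887 genes, 17492 of them in the table), with strand from the table or from GENCODE. Overlap was at least 1 bp. Scores were fitted with limma 3.58.1 in R 4.3.3 over all 7 libraries with no covariate, and tested on simulated data first. Peak numbers were compared by exact two-sided permutation over 35 splits. Tables were made in Python 3.11.15 (pandas 2.3.3, scipy 1.17.1, numpy 2.4.6) and plots in matplotlib 3.10.9. No peak was identical in a pair of libraries. At each gene the promoters, the regions highest by fold and by pileup and the region with the lowest unadjusted p were named; other genes were named where no library had a promoter peak or where the p was lowest of their list. The genes and lists were chosen with earlier results of these data known. Alternatives were a -log10 q of at least 5, equal peak numbers, peaks that hold a narrow peak, leaving out each library, ranks by pileup or within chromosomes, a replicate block, a depth covariate, robust limma, other start windows and spans without flanks. The alternatives for the 4 Utrn regions were added after seeing the data. One further gene list is not reported here.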

Additional observations from a re-analysis of the deposited data

Results flagged for a closer look

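In the 4 Nedd4L-cKO libraries, 1 library stood apart from the other 3 in peak number at 5 genes, by the ratio of its gap to the whole range (Dixon's ratio, 95% level). Nedd4L-cKO replicate 4 had 17 peaks at Dmd against 12 in each of the other 3, 4 at Sgcb against 3, and 6 at Sspn against 5. Replicate 3 had 3 at Sgca against 4, and replicate 2 had 2 at Sgcd against 3. Replicate 4 also had the most tags kept (20.1 M) and the most peaks (79158) of the 7 libraries. With the same number of peaks kept in every library, it had 13 peaks at Dmd against 11 to 12 in the other 3 and 5 at Sspn, the same as the other 3, while at Sgcb it still had 4 against 3. In all, 29 groups of 4 values were examined, and chance marks about 1 in 20. Where 3 small whole numbers are tied the ratio is 1 whatever the gap, as in all 5 cases here. No promoter percentile stood apart in this way.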

How the results depend on the processing

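No region at the 9 genes passed an adjusted limma p of 0.05 under any of the alternatives fitted, the replicate block included (0 regions, and 4 with an unadjusted p under 0.05, of which 3 were among the 4 without the block; at 33.4 kb in Utrn the p was 0.133, and 0.0604 with tags kept as a covariate). Same-numbered libraries of the 2 genotypes did not deviate together (r = -0.123, 0.033 and -0.122), so the numbers were not taken to pair them. No region was called in all libraries of 1 genotype and none of the other under any alternative run. The number of genes with a promoter peak in every library was 8, beside 63.4% of all protein-coding genes with a start site. It fell to 5 when only peaks with a -log10 q of at least 5 were kept (Sgcd, Dtna and Sntb1 were lost). It was 9 with start sites widened to 2.5 kb and 6 with the outermost start alone. For these 3 settings the share of all genes was not counted. Genes with peak numbers that did not overlap between genotypes were 0 to 1 when 1 library was left out. The 4 regions with an unadjusted limma p under 0.05 became 1 of 24 at the stricter q, where the share over all regions was not counted. That region was the one at 81.8 kb in Utrn (-0.84, limma p of 0.00263 before adjustment). The regions at 33.4, 296 and 445 kb had no estimate at that setting. By pileup the 4 became 2 of 60, beside 2.71% of all regions. With 1 library left out, run with limma on the rest, the estimates of the 4 Utrn regions stayed below 0; the unadjusted p was at most 0.0268 at 296 kb and at most 0.0262 at 81.8 kb, and rose to 0.186 at 33.4 kb and 0.171 at 445 kb, both without WT replicate 1. By pileup rank the values at 33.4, 81.8 and 296 kb moved to -0.26, -0.30 and -0.26, with limma p of 0.0801, 0.0115 and 0.0947 before adjustment. The cause was not tested. Of 116 promoter fold differences between genotypes under the alternatives, 15 changed sign, of 116 by pileup 20 did, and of 99 peak number differences 8 did. No difference was called at any of the 9 genes, so the sign changes could not fall elsewhere.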
